A study of Mus musculus with 30 samples.

Results

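The embryos described here are the 9 wild-type (WT) mouse embryos among 23 single embryos profiled by RNA-seq, 6 collected at embryonic day (E) 2.5 and 3 at E2.75. They were chosen by the genotype and the stage in their labels, from a series of 30 samples that also holds chromatin samples of embryonic stem cells. All 23 embryos came from matings of Dis3 heterozygous (het) mice, whose females had been stimulated with PMSG and hCG, so the embryos labelled WT come from the same matings as the mutants and by their label lack the null allele of Dis3, the catalytic subunit of the RNA exosome. The Dis3 null allele lacks exons 3-5 and was made by CRISPR/Cas9 in 1-cell embryos of B6D2F1 mice. The study used KSOM medium for its ex vivo culture of embryos, and its RNA-seq method says only that embryos were collected individually into lysis buffer. RNA was captured with oligo-dT beads, the ERCC spike-in RNA mix was added to each sample, and each embryo was genotyped from its remaining genomic DNA. The labels give the day of each embryo and not its number of cells, its litter, its collection date or whether it had compacted, so stage cannot be told apart from any of these.

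At these stages the mouse embryo is a morula. Its cells flatten against each other in compaction, through E-cadherin and a contracting actin and myosin cortex, and acquire an apical and a basal side. Outer and inner cells then begin to differ through Hippo signalling and the TEAD4-dependent genes Cdx2 and Gata3, which mark the future trophectoderm, while RNA and protein stored in the oocyte decline and the embryo shifts from pyruvate towards glucose as an energy source. These are background, and the comparison below asks which of these programmes differ in RNA level between the days in normal embryos.

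The deposited counts summed to between 3283708 and 8644043 per E2.75 embryo and between 5525515 and 14015980 per E2.5 embryo, which did not differ beyond chance assignment (exact permutation test over the 84 ways to choose 3 of 9 embryos, two-sided p = 0.167, 0.200 adjusted over 6 library measures). Levels are given as CPM (a count scaled to the TMM-normalized library size). At an equal depth of 3283708 counts, 15784 to 16976 genes were detected at E2.75 and 14387 to 15462 at E2.5, without overlap (exact permutation p = 0.0238, the smallest that 9 embryos allow, adjusted p = 0.0714). The 50 highest genes took 15.1% to 17.6% of the counts at E2.75 and 18.6% to 24.4% at E2.5 (exact permutation p = 0.0238, adjusted p = 0.0714). ERCC counts made up 2.53% to 3.70% at E2.75 and 3.49% to 7.44% at E2.5 (exact permutation p = 0.0476, adjusted p = 0.0952), which is 31.0 ± 6.68 gene counts per ERCC count (SD, n = 3) against 20.4 ± 5.36 (SD, n = 6). The first principal component held 27.8% of the variance and separated the stages.

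**Figure D1:**
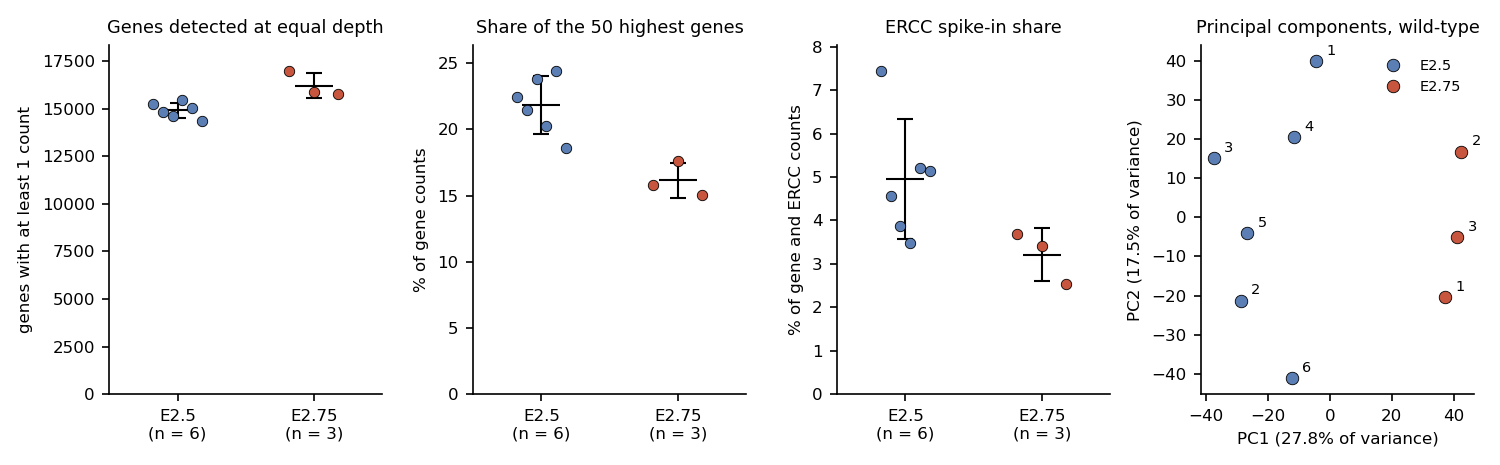
Library measures and principal components of the 9 WT embryos. The first 3 panels plot genes with at least 1 count after thinning to equal depth, the percent of gene counts in the 50 highest genes and the percent of ERCC counts, 1 point per embryo with mean and SD, and the last panel plots the first and second principal components with the replicate number beside each embryo. The E2.75 embryos lie at 37.3 to 42.5 on the first component and the E2.5 embryos between -37.5 and -4.30.

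The embryos were checked against their labels before the comparison. All 11 defining markers of the early embryo fixed for this check passed the filter on low counts, and they summed to between 6096 and 6160 CPM at E2.75 and between 12044 and 22114 CPM at E2.5, a difference that lay largely in Dppa3. Markers of other cells were near 0: the 12 cumulus and granulosa markers summed to 13.3 to 20.3 CPM at E2.75 and 14.2 to 36.4 at E2.5, the 7 oviduct markers to 0.102 to 7.36 and 0 to 4.51, the 10 blood markers to 4.30 to 7.11 and 0.388 to 13.03, and the 7 sperm markers to 0 and 0 to 0.952. Dis3 itself was at 106, 64.3 and 108 CPM at E2.75 and from 17.3 to 135 CPM (median 81.3) at E2.5. The lowest of these, E2.5 embryo 6, was near the null embryos. In a normalization over all 23 embryos it was at 17.9 CPM, where null embryos were at 0 to 15.97 CPM at E2.5 and 10.1 to 20.7 CPM at E2.75 and het embryos at 29.8 to 59.6 CPM, so the main counts are also given without it. Xist, transcribed from the inactive X chromosome of females, was at 1218, 4.34 and 1358 CPM at E2.75 and from 0.388 to 2638 CPM (median 690) at E2.5, so both stages hold embryos with and without it.

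Of 13272 genes tested, 402 rose from E2.5 to E2.75 (3.03%) and 495 fell (3.73%), in edgeR's quasi-likelihood test, where a gene was called at a Benjamini-Hochberg adjusted p below 0.1 together with a change of more than 1 on the log2 scale. The median called change was 1.85 for the rises and -1.41 for the falls, on the log2 scale. The 3 E2.75 embryos lay above all 6 E2.5 embryos for 919 genes (6.92%) and below all of them for 1020 (7.69%), which include 367 of the 402 rises and 450 of the 495 falls. Without E2.5 embryo 6 the counts were 519 and 568, with 11 rises in the list of sterol and fatty acid synthesis described below in place of 9, 5 in glycolysis in place of 4 and 2 among p53 targets in place of 1. They fell to 96 and 99 without E2.75 embryo 1, to 96 and 110 without embryo 2 and to 42 and 54 without embryo 3, so the calls of the lists below are also given for those 3 fits. Scaling to the ERCC spike-ins instead of TMM moved the median of all genes from 0.03 to 0.92 and the split to 1861 rises and 38 falls. Every fold change given here is therefore relative to the other genes of the same embryos, and since single embryos of unknown cell number were sequenced, a different number of cells and a different amount of RNA per cell cannot be told apart. No label says that embryos of a stage came from separate litters, so p-values measure the spread between these embryos.

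The genes that differed also differed in length and base composition. The longest annotated transcript had a median of 3869.5 bases for the rises, 1908 for the falls and 3020 for all genes tested, and a median GC content of 53.4%, 46.6% and 48.8%. With the genes split into 5 equal bins by length, 16 of the shortest bin rose and 210 fell, with a median log2 fold change of -0.65, and in the longest bin 123 rose and 32 fell, with a median of 0.32. The trend was present in each E2.75 library, whose shortest bin lay below its longest by -0.57, -0.75 and -0.76 relative to the mean of the 9 libraries, where the E2.5 libraries ranged from -0.01 to 0.88. With an offset for transcript length and GC in each library, which was chosen after seeing the data, 138 genes rose (1.04%) and 226 fell (1.7%), of which 123 and 161 were among those called above. The offset also removes any biological difference that follows length or GC, and the part of library preparation in the trend was not tested.

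**Figure D2:**
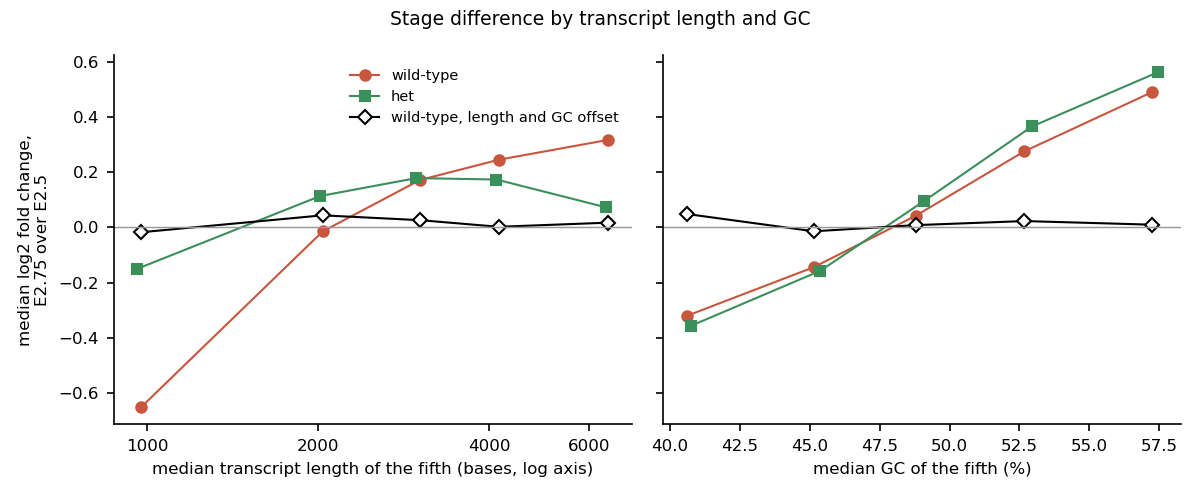
Median log2 fold change of E2.75 over E2.5 in 5 equal bins of the tested genes by length (left, log axis, bases) and GC content (right, percent) of the longest annotated transcript. In WT embryos the medians run from -0.65 to 0.32 with length and from -0.32 to 0.49 with GC, in het embryos from -0.15 to 0.18 and from -0.36 to 0.56, and with the offset they lie between -0.02 and 0.05.

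Genes of sterol and fatty acid synthesis were called in 1 direction. Of 31 tested, 9 rose and 0 fell, where 3.03% and 3.73% of all genes did. The median log2 fold change was 1.23 (1.12 with the length and GC offset, where 5 were called), against 0.03 over all genes. The median fell to 0.44 without E2.75 embryo 2. The rises include Fasn, Sqle, Srebf2, Cyp51, Acly, Scd2 and Lss, and 8 members of the list were called without E2.75 embryo 1, 3 without embryo 2 and 3 without embryo 3. The summed level of the list was 5520 CPM in E2.75 embryo 2 and 3047 in embryo 3, both above the E2.5 range of 1276 to 2117, and 1989 in embryo 1, which lies inside it.

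Fasn (fatty acid synthase, chr11:120805846-120824547 on the minus strand of GRCm38) was at 217, 390 and 215 CPM at E2.75 and from 7.91 to 54.9 CPM (median 20.2) at E2.5. All E2.75 embryos lay above all E2.5 embryos, with a log2 fold change of 3.27 ± 0.49 (SE, edgeR adjusted p = 0.0106). Acly, which makes the cytosolic acetyl-CoA that fatty acid and sterol synthesis share, was at 176, 571 and 315 CPM against 38.7 to 143 CPM (log2 fold change 1.79 ± 0.44, edgeR adjusted p = 0.0463). Scd2, a fatty acid desaturase, was at 23.6, 241 and 113 CPM against 9.70 to 50.9 CPM, so its stages overlapped through E2.75 embryo 1 (log2 fold change 2.52 ± 0.63, edgeR adjusted p = 0.0465).

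On the sterol branch, Sqle (squalene epoxidase, chr15:59315077-59331192, plus strand) was at 169, 310 and 176 CPM at E2.75 and from 36.8 to 94.1 CPM (median 55.8) at E2.5, with a log2 fold change of 1.89 ± 0.31 (edgeR adjusted p = 0.0138). Lss, which closes the squalene chain into the first sterol, was at 109, 226 and 115 CPM against 11.5 to 74.5 CPM (1.73 ± 0.46 on the log2 scale, edgeR adjusted p = 0.0548). Cyp51, the lanosterol demethylase, was at 34.3, 254 and 37.1 CPM against 4.56 to 27.0 CPM (2.71 ± 0.67, edgeR adjusted p = 0.0461). In all 3 the groups did not overlap, and E2.75 embryo 2 was the highest. Without that embryo Cyp51 was at 1.11 (edgeR adjusted p = 0.492) and Scd2 at 1.65 (edgeR adjusted p = 0.291). Acly, Scd2, Lss and Cyp51 were not called without E2.75 embryo 2 or embryo 3, while Fasn, Sqle and Srebf2 were called in each fit that left out 1 embryo. Hmgcs1, an enzyme of the first steps, had a log2 fold change of 1.23 ± 0.40 that did not pass (edgeR adjusted p = 0.113).

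Among the regulators of the pathway, Srebf2, the transcription factor that activates sterol genes when membrane sterol is low, was at 14.7, 70.2 and 34.1 CPM at E2.75 and from 0 to 2.33 CPM (median 0.459) at E2.5, without overlap (log2 fold change 5.62 ± 0.96, edgeR adjusted p = 0.0165). Insig1, which holds the factor inactive when sterol is plentiful, was at 37.1, 170 and 54.0 CPM against 19.4 to 57.0 CPM and did not pass (1.29 ± 0.48, edgeR adjusted p = 0.166). In het embryos the list had 26 of 31 members with a positive log2 fold change and a median of 1.31. In null embryos the median of the 28 members tested was lower, at 0.44. The lipid droplet list, which stores the products, had 0 of 14 called and a median of 0.45.

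The promoters of this list were read from RefSeq on GRCm38.p6 for the window from 250 bases before to 50 after the gene start. They were searched for CCAAT on both strands, the letters of the box that factor NF-Y reads beside sterol response elements. Of the list, 28 promoters of 22 genes were found, and 20 held the letters (71.4%), where 37.4% of all 32851 promoters and 38.7% of the 11767 promoters of genes tested held them. All 5 called genes with a promoter in the table did. The windows of 3 of them are shown 5′ to 3′ on the gene's strand, with CCAAT or its reverse complement in capitals. They are Fasn at chr11:120824498-120824797 (minus strand), Cyp51 at chr5:4104648-4104947 (minus strand) and Srebf2 at chr15:82147019-82147318 (plus strand).
Fasn promoter: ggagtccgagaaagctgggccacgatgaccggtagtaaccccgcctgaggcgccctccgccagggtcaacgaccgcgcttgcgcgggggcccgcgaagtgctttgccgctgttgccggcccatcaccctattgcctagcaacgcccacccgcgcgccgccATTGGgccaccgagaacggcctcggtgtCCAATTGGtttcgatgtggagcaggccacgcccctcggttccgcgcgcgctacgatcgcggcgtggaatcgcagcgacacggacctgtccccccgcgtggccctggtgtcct
Cyp51 promoter: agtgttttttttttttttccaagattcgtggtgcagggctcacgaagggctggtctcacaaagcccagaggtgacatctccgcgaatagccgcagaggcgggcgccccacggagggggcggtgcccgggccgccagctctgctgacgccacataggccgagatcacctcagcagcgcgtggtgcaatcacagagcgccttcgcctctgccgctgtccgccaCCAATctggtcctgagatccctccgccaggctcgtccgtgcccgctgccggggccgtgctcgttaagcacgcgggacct
Srebf2 promoter: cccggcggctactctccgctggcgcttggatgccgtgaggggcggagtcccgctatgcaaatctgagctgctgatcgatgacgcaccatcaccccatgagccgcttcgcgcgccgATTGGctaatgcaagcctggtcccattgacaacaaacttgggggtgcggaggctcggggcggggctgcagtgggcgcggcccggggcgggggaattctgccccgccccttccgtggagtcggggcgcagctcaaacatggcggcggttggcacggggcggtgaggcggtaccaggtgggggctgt
The Fasn window holds the letters 3 times, 90, 62 and 59 bases before the start, the last 2 on opposite strands of an overlapping run. A match is a description of these letters and says nothing of binding. The share for the list is a property of the genes chosen and does not use the embryos' values, so it says nothing of the stage difference.

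Glucose metabolism showed a smaller set. Of 21 tested genes of glycolysis and glucose uptake, 4 rose and 0 fell, where 3.03% and 3.73% of all genes did. The median log2 fold change was 0.80 (0.64 with the offset, where 0 were called, and 0.42 without E2.75 embryo 2). One gene of the list was called without E2.75 embryo 1 and 0 without embryo 2 or embryo 3. Hk1, the hexokinase that traps glucose in the cell, was at 81.5, 139 and 51.7 CPM at E2.75 and from 10.8 to 38.0 CPM (median 20.96) at E2.5, without overlap (log2 fold change 1.94 ± 0.45, edgeR adjusted p = 0.0389). Gpi1, the next enzyme, was at 19.8, 25.7 and 22.0 CPM against 2.14 to 10.0 CPM (2.50 ± 0.68, edgeR adjusted p = 0.0617). Pkm, which makes pyruvate, and Ldha, which reduces it to lactate, were each high in embryo 2 (110 and 378 CPM) and overlapped the E2.5 range in another embryo, with log2 fold changes of 2.25 ± 0.59 and 2.07 ± 0.57 (edgeR adjusted p = 0.0542 and 0.0617). Without embryo 2 these were 1.07 and 0.86 (edgeR adjusted p = 0.511 and 0.517). Slc2a3, a glucose transporter, was at 65.5, 43.9 and 150 CPM against 13.8 to 49.0 CPM and did not pass (1.53 ± 0.49, edgeR adjusted p = 0.102). Ldha had a log2 fold change of -0.20 in het embryos, where the list's median was 0.78.

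Of 35 cell cycle genes tested, 6 rose and 0 fell, where 3.03% and 3.73% of all genes did. The median log2 fold change was 0.61 (0.50 with the offset, where Cdc20 alone was called, and 0.33 without E2.75 embryo 2). Cdc20, the activator of the anaphase-promoting complex, was at 1034, 709 and 906 CPM at E2.75 and from 125 to 375 CPM (median 201) at E2.5. Its embryos did not overlap, the log2 fold change was 1.99 ± 0.31 (edgeR adjusted p = 0.0109), and it stayed called without each of the 3 E2.75 embryos, alone among the list. The other 5 act at the start of replication (Mcm2 and Cdt1), at entry into the cycle (Ccnd3), in S phase (Cdk2) and in mitosis (Plk1), with log2 fold changes from 1.25 to 1.76. Leaving out E2.5 embryo 2 or embryo 3 left 2 rises in the list, and leaving out embryo 5 left 3. Gmnn, geminin, the inhibitor of Cdt1, was called lower without E2.5 embryo 3 (-1.03, edgeR adjusted p = 0.093) or embryo 4 (-1.06, edgeR adjusted p = 0.0499). Ccna2, the S and G2 cyclin, was at 824, 622 and 721 CPM against 276 to 538 CPM, below the fold threshold (0.78 ± 0.24, edgeR adjusted p = 0.0915), and Ccnb2, a mitotic cyclin, lay below its E2.5 range at 59.6, 81.5 and 96.7 CPM against 113 to 189 CPM (-0.89 ± 0.27, edgeR adjusted p = 0.0887, and 0.06 under ERCC scaling). In het embryos the list's median was -0.03, and Cdc20 was at 0.83.

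Ribosome biogenesis genes were called in both directions. Of 33 tested, 7 rose and 3 fell, where 3.03% and 3.73% of all genes did. The median log2 fold change was 0.47 (0.09 with the offset, where of the 10 called genes Nop2, Utp20, Utp4 and Nhp2 were called). Nop2, an rRNA methyltransferase of the large subunit, was at 194, 148 and 139 CPM at E2.75 and from 31.3 to 60.5 CPM (median 39.8) at E2.5 (log2 fold change 1.89 ± 0.28, edgeR adjusted p = 0.0101). Utp20, of the small-subunit processome, was at 229, 225 and 283 CPM against 51.3 to 120 CPM (1.56 ± 0.28, edgeR adjusted p = 0.0190). Utp4, Rrp1, Bop1, Polr1a and Polr1b had log2 fold changes from 1.15 to 1.69. The falls are Nhp2 and Nop58, core proteins of the snoRNA particles, and Nip7, by log2 fold changes of -1.60 ± 0.28, -1.12 ± 0.28 and -1.07 ± 0.28 (edgeR adjusted p = 0.0165, 0.0466 and 0.0508). Nhp2 was at 751, 639 and 830 CPM against 1527 to 3131 CPM. The E2.75 embryos of Nop2, Utp20, Nhp2 and Nip7 all lay outside the E2.5 range. The rises and falls numbered 3 and 2 without E2.75 embryo 1, 3 and 1 without embryo 2 and 1 and 1 without embryo 3.

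The list of p53 targets turned on 1 embryo. With all 9 embryos 1 of 16 tested rose, where 3.03% of all genes did. This was Sesn2, a stress-induced inhibitor of mTORC1, at 339, 203 and 264 CPM against 10.7 to 142 CPM (log2 fold change 2.20 ± 0.56, edgeR adjusted p = 0.0499). E2.5 embryo 1 stood apart from the other 5 E2.5 embryos: the list summed to 3251 CPM in it, to 769 to 1464 CPM in the others and to 1905 to 2472 CPM at E2.75. Ccng1, a direct p53 target, was at 604 CPM in that embryo and at most 75.4 CPM in the other 5, and at 114, 281 and 128 CPM at E2.75. Cdkn1a, the p53-induced inhibitor of cyclin-dependent kinases, was at 1044 CPM in it against 193 to 536 CPM in the others and 273, 371 and 532 CPM at E2.75. Without that embryo 10 of the 16 rose: Bbc3, Ccng1, Mdm2, Phlda3, Plk2, Pmaip1, Sesn2, Trp53, Trp53inp1 and Zmat3. Of these Trp53 encodes p53 itself. Over all genes 460 rose and 498 fell in the same fit. The embryo was singled out by the level of this list, so leaving it out lowers the E2.5 level of the list by construction. In that fit Ccng1 had a log2 fold change of 1.48 ± 0.32 (edgeR adjusted p = 0.0336) in place of 0.19 ± 0.77 with it, while Cdkn1a was at 0.29 ± 0.37 (edgeR adjusted p = 0.750). None of the list was called without any 1 of the 3 E2.75 embryos, and the offset left 0 called. The same embryo had the highest total count and the highest ERCC share of the 9, and their part in this was not tested.

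**Figure D3:**
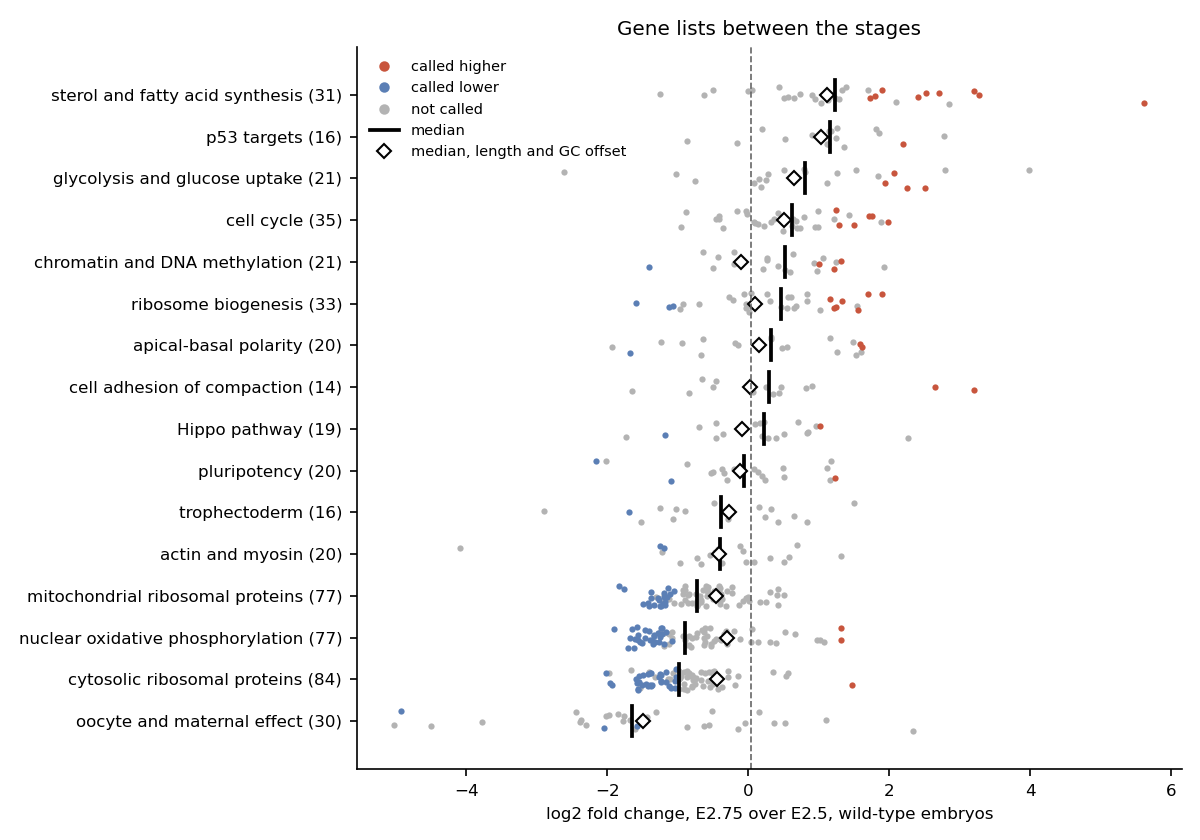
Log2 fold change of E2.75 over E2.5 for each tested gene of 16 lists, with the number tested in parentheses. Red points were called higher, blue points lower and grey points neither, black bars are list medians, diamonds are the medians with the length and GC offset, and the dashed line is the median of all genes tested. Medians run from 1.23 for sterol and fatty acid synthesis to -1.64 for oocyte and maternal effect genes.

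Genes for the ribosome and the respiratory chain made up many of the falls. Of 84 cytosolic ribosomal protein genes 32 fell and 1 rose, with a median log2 fold change of -0.98, and their summed level was 18803 to 19509 CPM at E2.75 against 29811 to 59971 CPM at E2.5. Of 77 nuclear genes of oxidative phosphorylation 29 fell and 2 rose, with a median of -0.89. Of 77 mitochondrial ribosomal protein genes 21 fell and 0 rose, with a median of -0.73. These are the 3 lists of shortest transcripts among those tested that held over 20 genes, with median lengths of 1076.5, 1129 and 1884 bases. With the length and GC offset the medians of the 3 lists were -0.45, -0.30 and -0.46 and the falls 8, 4 and 7. Under ERCC scaling, where the median of all genes was 0.92, the list medians were -0.05, 0.11 and 0.21. The falls called dropped to 4, 3 and 1 without E2.75 embryo 1, to 3, 3 and 2 without embryo 2 and to 1, 1 and 0 without embryo 3. Ribosomal protein genes share sequence with many processed pseudogenes, so their counts are uncertain where reads could not be placed.

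Within these lists a few members kept their call with the offset. Rps19, of the small ribosomal subunit (chr7:24884371-24889806, plus strand), was at 358, 362 and 347 CPM at E2.75 and from 751 to 1259 CPM (median 864) at E2.5, with a log2 fold change of -1.40 ± 0.24 (edgeR adjusted p = 0.0165). Rpsa, another small-subunit protein, went the other way at 103, 62.8 and 110 CPM against 27.1 to 40.3 CPM (1.47 ± 0.30, edgeR adjusted p = 0.0278). Ndufb8, a subunit of complex I, was at 216, 275.2 and 201 CPM against 502 to 889 CPM (-1.60 ± 0.25, edgeR adjusted p = 0.0117). Atp5b, the catalytic beta subunit of ATP synthase, rose at 1046, 1360 and 1217 CPM against 338 to 671 CPM (1.32 ± 0.26, edgeR adjusted p = 0.0256), as did Sdha, the flavoprotein of complex II (1.31 ± 0.40, edgeR adjusted p = 0.0897), which lost its call with the offset. The groups of the first 4 did not overlap. Of the 3 fits that leave out an E2.75 embryo, Ndufb8 was called in each and Rps19 without embryo 1 or 2. Rpsa was called without embryo 2 alone, Atp5b without embryo 1 alone and Sdha in none of them. The mitochondrial genome had 8 of 13 genes tested, of which 1 rose and 1 fell, 5 were negative and the median was -0.35. Its summed level was 33619 to 49982 CPM at E2.75 and 34430 to 84684 CPM at E2.5. Mt-Co2 and mt-Co3 were at most 0.388 and 0.334 CPM in any embryo, and the part of read placement in this was not tested. The rise was mt-Co1, at 3889, 3839 and 4039 CPM against 1312 to 2941 CPM (1.03 ± 0.25, edgeR adjusted p = 0.0422), without overlap. The call of mt-Co1 was lost without any 1 of the 3 E2.75 embryos and without E2.5 embryo 2, 5 or 6, where its log2 fold change lay between 0.94 and 1.06. Mt-Nd6 was called lower, a call lost without any 1 of the E2.75 embryos or E2.5 embryo 3, and it lies on the strand opposite mt-Nd5 and the counting did not use strand.

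Oocyte and maternal effect genes were lower as a list. Of 30 tested, 3 fell and 0 rose, where 3.73% and 3.03% of all genes did. In 25 the log2 fold change was negative, and the median was -1.64, the lowest of all lists with more than 2 genes tested (-1.50 with the offset, -0.69 under ERCC scaling). The summed level was 4343 to 4680 CPM at E2.75 and 9880 to 20517 CPM at E2.5, and the median was -1.22 in het embryos. Dppa3, a maternal factor that protects the early genome from loss of methylation (chr6:122626410-122630272, plus strand), was the most abundant, at 4337, 3674 and 4019 CPM at E2.75 and from 7800 to 16733 CPM (median 11942) at E2.5. Its groups did not overlap, with a log2 fold change of -1.58 ± 0.26 (edgeR adjusted p = 0.0138), and with the offset it was at -0.75, within the fold threshold. Omt2b, an oocyte-specific gene, was at 1.27, 1.22 and 4.00 CPM against 17.9 to 214 CPM (-4.93 ± 0.93, edgeR adjusted p = 0.0227). Khdc3, of the subcortical maternal complex, was at 236, 595 and 366 CPM against 563 to 3576 CPM, overlapping slightly (-2.05 ± 0.53, edgeR adjusted p = 0.0502). H1foo, the oocyte linker histone, Oosp1 and Omt2a had log2 fold changes of -5.02 ± 2.21, -4.50 ± 1.85 and -2.38 ± 0.86 that did not pass (edgeR adjusted p = 0.244, 0.207 and 0.153). The list kept 1 call without E2.75 embryo 1, 1 without embryo 2 and 2 without embryo 3. Of 11 genes of the 2-cell stage 1 fell, Obox6, at 1323, 1384 and 1694 CPM against 1440 to 4578 CPM (-1.08 ± 0.32, edgeR adjusted p = 0.0803), a call lost without any 1 of the E2.75 embryos, without E2.5 embryo 2, 3, 5 or 6 and with the offset.

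The lists of compaction machinery and of lineage held few calls, in both directions, and counts of 1 or 2 in a list are near the 3.03% and 3.73% of all genes, so they describe the genes named and not the lists. Of 14 adhesion genes 2 rose and 0 fell, with a median log2 fold change of 0.30. Jup, plakoglobin of the junctional plaque, was at 45.2, 83.3 and 159 CPM at E2.75 and from 2.41 to 36.5 CPM (median 14.02) at E2.5 (log2 fold change 2.64 ± 0.71, edgeR adjusted p = 0.0568). Vcl, vinculin, which couples cadherin junctions to actin, was at 20.6, 34.1 and 25.9 CPM against 0.226 to 7.81 CPM (3.20 ± 0.91, edgeR adjusted p = 0.0702). Neither group overlapped, and both calls were lost without any 1 of the 3 E2.75 embryos, without E2.5 embryo 5 and with the offset, and that of Vcl also without E2.5 embryo 3 or 4. Cdh1, E-cadherin, was at 145, 153 and 166 CPM against 93.6 to 138 CPM, above the E2.5 embryos in all 3 but with a log2 fold change of 0.46 ± 0.22 that did not pass (edgeR adjusted p = 0.288) and of -0.07 with the offset.

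Of 20 polarity genes 2 rose and 1 fell. The rises are both lethal giant larvae homologues of the basolateral domain, Llgl1 at 100, 126 and 127 CPM against 22.9 to 72.3 CPM (log2 fold change 1.59 ± 0.38, edgeR adjusted p = 0.0431) and Llgl2 at 37.1, 39.9 and 70.2 CPM against 7.45 to 24.7 CPM (1.61 ± 0.45, edgeR adjusted p = 0.0656). Their log2 fold changes were 0.47 and 0.44 with the offset and neither was then called. The fall is Crb3, of the apical Crumbs complex, at 73.1, 117 and 53.2 CPM against 119 to 435 CPM (-1.67 ± 0.40, edgeR adjusted p = 0.0413). None of the 3 pairs of groups overlapped, and of these calls Crb3 alone remained without E2.75 embryo 2 and none without embryo 1 or embryo 3.

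Of 20 actin and myosin genes 2 fell, both myosin light chains. Myl12a was at 25.9, 38.4 and 21.5 CPM against 50.9 to 79.7 CPM (log2 fold change -1.19 ± 0.34, edgeR adjusted p = 0.0686) and Myl6 at 63.5, 66.2 and 61.0 CPM against 99.0 to 295 CPM (-1.25 ± 0.38, edgeR adjusted p = 0.0865). Neither overlapped, and neither was called without any 1 of the 3 E2.75 embryos or without E2.5 embryo 2 or 5. Of 15 genes of tight junctions and cavitation 1 fell, Cldn7, a claudin, at 126, 133 and 89.2 CPM against 232 to 361 CPM (-1.47 ± 0.25, edgeR adjusted p = 0.0161). Its groups did not overlap, and it kept its call with the offset but not without E2.75 embryo 3. F11r, the adhesion molecule JAM-A, was at 268, 271 and 238 CPM, above the E2.5 range of 77.1 to 221 CPM, without passing (0.89 ± 0.36, edgeR adjusted p = 0.204). Of 6 keratin and desmosome genes 1 fell, Krt8, a keratin of the early epithelium, at 7.61, 18.6 and 12.4 CPM against 25.1 to 176 CPM (-2.65 ± 0.60, edgeR adjusted p = 0.0363), while its partner Krt18 was at 88.3, 36.7 and 61.4 CPM against 2.19 to 86.7 CPM (1.09 ± 0.83, edgeR adjusted p = 0.550). In het embryos Krt8 had the opposite sign, 0.80, and its call was lost without any 1 of the 3 E2.75 embryos.

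Gja1, connexin 43, a gap junction protein which joins the cells of the morula from compaction on (chr10:56377330-56402513, plus strand), fell. It was at 574, 823 and 687 CPM at E2.75 and from 1631 to 2569 CPM (median 1887) at E2.5, without overlap. The log2 fold change was -1.49 ± 0.24 (edgeR adjusted p = 0.0116), and -1.26 with the offset, where it stayed called. Gja1 remained called without each of the 3 E2.75 embryos. Under ERCC scaling its log2 fold change was -0.58 and it was not called, and in het embryos it was -0.83.

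**Figure D4:**
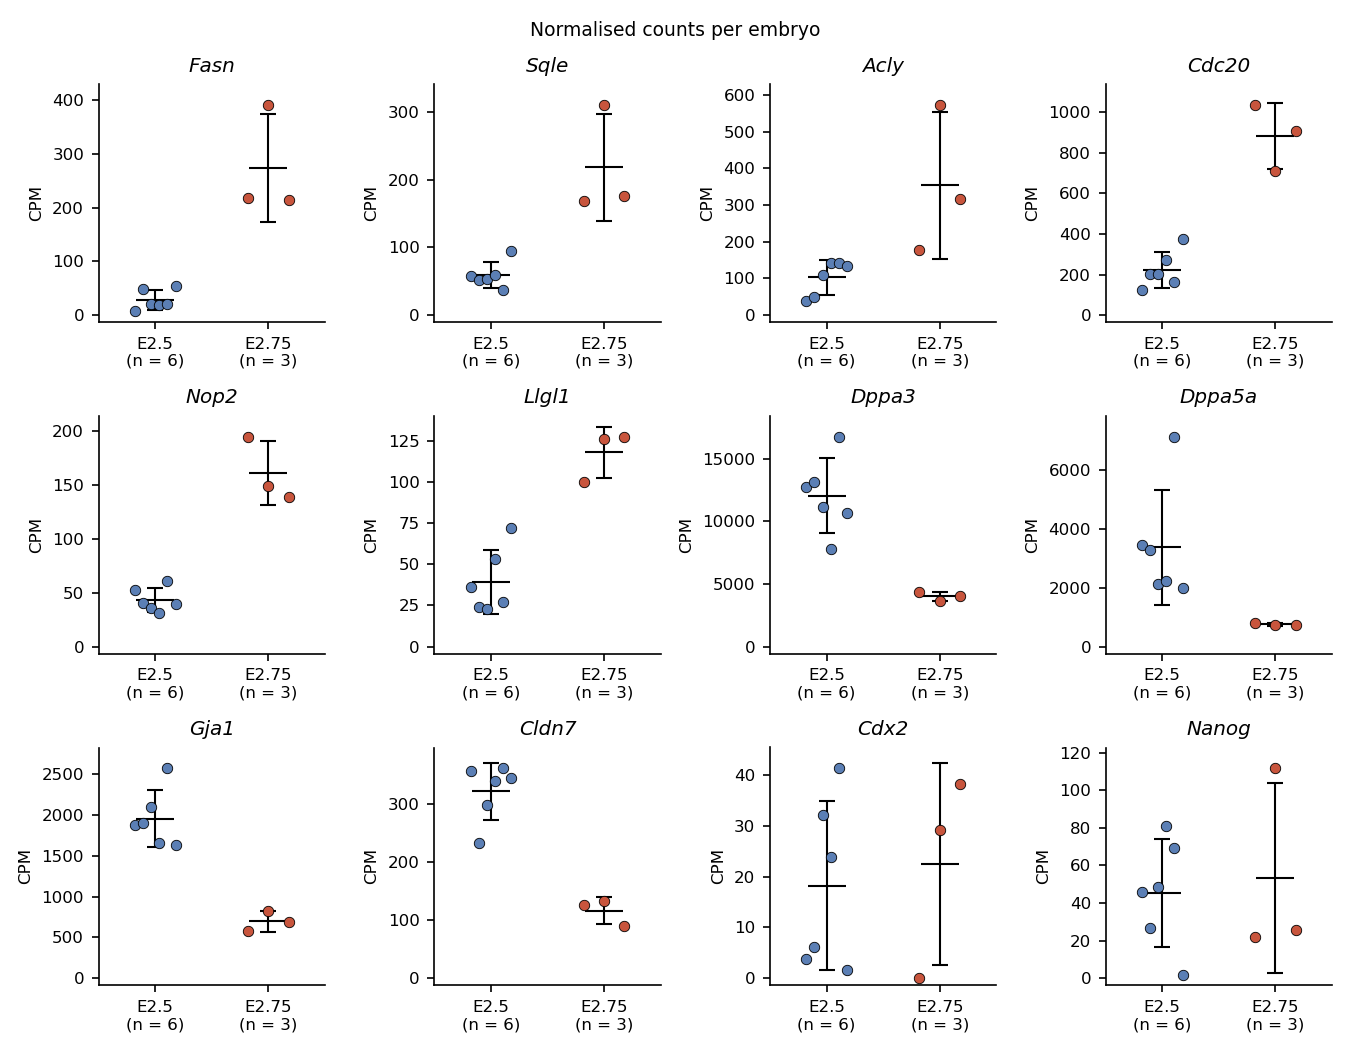
Normalised counts (CPM, linear axes) of 12 genes in the 6 E2.5 and 3 E2.75 WT embryos, 1 point per embryo, with the mean and SD. The stages do not overlap for Fasn, Sqle, Acly, Cdc20, Nop2, Llgl1, Dppa3, Dppa5a, Gja1 and Cldn7, and overlap widely for Cdx2 and Nanog.

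Of 19 Hippo pathway genes 1 rose and 1 fell, where 3.03% and 3.73% of all genes did, so the counts are near the background and say nothing of the pathway. The median log2 fold change was 0.22, and the 2 genes were Nf2, an activator of the pathway, at 77.7, 132 and 89.4 CPM against 32.8 to 60.9 CPM (log2 fold change 1.01 ± 0.31, edgeR adjusted p = 0.0912), and Mob1b, a co-activator of LATS kinases, at 106, 127 and 72.5 CPM against 117 to 314 CPM (-1.19 ± 0.33, edgeR adjusted p = 0.0634). Both calls were lost without any 1 of the E2.75 embryos, without E2.5 embryo 2 and with the offset, and that of Nf2 also without E2.5 embryo 3, 5 or 6. The effectors Yap1 and Tead4 had log2 fold changes of 0.20 ± 0.42 and 0.22 ± 0.38 (edgeR adjusted p = 0.876 and 0.832).

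Of 16 trophectoderm genes 1 fell, Klf5, at 232, 424 and 348 CPM against 603 to 1918 CPM without overlap (log2 fold change -1.69 ± 0.36, edgeR adjusted p = 0.0295), a call it kept with the offset and without E2.75 embryo 2 but not without embryo 1 or embryo 3. Cdx2, the trophectoderm master regulator, was at 0, 29.2 and 38.2 CPM at E2.75 and from 1.67 to 41.3 CPM (median 15.0) at E2.5. The E2.75 embryos thus spanned nearly the whole range of the E2.5 embryos, and the log2 fold change was 0.32 ± 1.17 (edgeR adjusted p = 0.932). Gata3 was at 19.8, 37.1 and 68.5 CPM against 13.1 to 61.2 CPM (0.42 ± 0.54, edgeR adjusted p = 0.758).

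Of 20 pluripotency genes 1 rose and 2 fell, with a median of -0.06. Esrrb, an orphan nuclear receptor of the naive state, was at 99.2, 99.3 and 91.2 CPM against 29.2 to 52.6 CPM (log2 fold change 1.23 ± 0.29, edgeR adjusted p = 0.0387), and at 0.37 with the offset. Dppa5a, an RNA-binding protein of pluripotent cells, was at 797, 723 and 740 CPM against 1980 to 7114 CPM (-2.16 ± 0.42, edgeR adjusted p = 0.0231), without overlap. Fbxo15, a target of Pou5f1 and Sox2, was at 2054, 2058 and 2939 CPM against 2666 to 6216 CPM (-1.09 ± 0.29, edgeR adjusted p = 0.0529). One fall of the list was called without E2.75 embryo 1 and none of the 3 genes without embryo 2 or embryo 3. Pou5f1 was at 685, 906 and 812 CPM against 246 to 1498 CPM (-0.21 ± 0.44, edgeR adjusted p = 0.876). Nanog was at 22.1, 112 and 25.8 CPM against 1.77 to 81.1 CPM (0.23 ± 0.81, edgeR adjusted p = 0.928), and without E2.75 embryo 2 its log2 fold change was -0.91. Sox2 was too low to test, at most 4.22 CPM in any embryo.

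Of 12 genes of the primitive endoderm and FGF signalling 1 rose and 1 fell, both feedback inhibitors of the pathway. Dusp6, the ERK phosphatase, was at 16.2, 16.7 and 52.2 CPM against 0.776 to 10.7 CPM (log2 fold change 2.62 ± 0.81, edgeR adjusted p = 0.0913), and Spry2 was at 53.3, 87.9 and 72.7 CPM against 154 to 374 CPM (-1.69 ± 0.33, edgeR adjusted p = 0.0249). Neither overlapped. Among the fits that leave out 1 embryo, Dusp6 was called in the one without E2.5 embryo 4 alone, and Spry2 was called without E2.75 embryo 2 but not without embryo 1 or embryo 3. Fgf4, the ligand, was at 6.60, 85.0 and 41.6 CPM against 5.14 to 86.6 CPM (0.78 ± 0.85, edgeR adjusted p = 0.703). Gata6 was at 52.8, 157 and 141 CPM against 125 to 374 CPM (-1.07 ± 0.41, edgeR adjusted p = 0.181), and passed with the offset at -1.92 (edgeR adjusted p = 0.0423) and without E2.5 embryo 1 at -1.20.

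Of 21 chromatin and DNA methylation genes 3 rose and 1 fell, where 3.03% and 3.73% of all genes did. The rises are Trim28, the corepressor of endogenous retroviruses (log2 fold change 1.21 ± 0.31, edgeR adjusted p = 0.0489), Chd1, a remodeller of open chromatin (1.00 ± 0.27, edgeR adjusted p = 0.0602), and Kdm6a, an H3K27 demethylase (1.32 ± 0.36, edgeR adjusted p = 0.0631). The fall is Suz12, a core subunit of Polycomb complex PRC2, at 205, 355 and 247 CPM against 357 to 1159 CPM (-1.41 ± 0.34, edgeR adjusted p = 0.0441). None of the 4 was called without E2.75 embryo 1 or embryo 3. In het embryos Chd1 and Kdm6a were at -0.13 and -0.05.

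Of 20 genes of the RNA exosome and its cofactors 1 rose and 2 fell, counts that are again too small to set apart from all genes. Skiv2l, helicase of the cytoplasmic exosome, was at 16.2, 24.8 and 24.9 CPM against 0.137 to 6.30 CPM (log2 fold change 3.23 ± 1.01, edgeR adjusted p = 0.0944). Mphosph6 and the core subunit Exosc3 had log2 fold changes of -1.64 ± 0.35 and -1.02 ± 0.27 (edgeR adjusted p = 0.0317 and 0.0516). Mphosph6 remained called without E2.75 embryo 2, and none of the 3 without embryo 1 or embryo 3, while Skiv2l was also lost without E2.5 embryo 2, 3, 4 or 6 and Exosc3 without E2.5 embryo 2, 3 or 5. Dis3 did not pass (0.22 ± 0.53, edgeR adjusted p = 0.891). Of 20 vacuolar ATPase genes Atp6v0d1 (1.33 ± 0.33, edgeR adjusted p = 0.0446) and Atp6v0e2 rose, the latter from at most 0.137 to at least 1.13 CPM, and Atp6v0e fell (-1.58 ± 0.30, edgeR adjusted p = 0.0227). Of 16 stress genes 1 fell, Hsp90aa1 (-1.32 ± 0.33, edgeR adjusted p = 0.0459). Without any 1 of the E2.75 embryos Atp6v0d1, Atp6v0e2 and Hsp90aa1 were not called, and Atp6v0e was not called without embryo 1. Hspa8, another chaperone gene of the stress list, was called lower without E2.75 embryo 1. The study itself took 10 genes forward, from those higher in null than in het embryos of this series and bound by DIS3 in published data of cultured cells. The 9 of them tested here had 0 called and a median of -0.17. Pou6f1 among them was at 22.1, 31.6 and 55.9 CPM against 3.14 to 26.8 CPM (1.86 ± 0.65, edgeR adjusted p = 0.141, and called without E2.5 embryo 3 at 2.43). The 5 sex-linked genes had 0 called.

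The largest changes were in genes near 0 at 1 stage. Of the 402 rises 12 had no count in the 6 E2.5 embryos, and of the 495 falls 8 had none in the 3 E2.75 embryos. Fgd2, an exchange factor for Cdc42 (chr17:29360914-29379661, plus strand), had 48, 160 and 18 counts at E2.75 and 0 in 60413467 gene counts at E2.5, which is at least 228-fold higher with 3 counts taken over the E2.5 group. Esam, an endothelial adhesion molecule, was at least 202-fold higher, Ecel1, an endopeptidase, 183-fold, Foxh1, the Nodal pathway's DNA-binding cofactor, 152-fold and Mettl7b 121-fold, also as lower bounds. Ipo13, a nuclear import and export receptor, had 462 counts against 5, a ratio of 280 with a 95% counting interval from 119 to 865. Nadsyn1, Pomt1, Nlgn1 and Usp44 had 1 count each at E2.5 and 225, 200, 114 and 104 at E2.75, and Lpin3 had 343 against 4. Gm28323, a sense intronic transcript, was at least 40.4-fold higher. In het embryos Gm28323 had the opposite sign, with a log2 fold change of -1.67. The other genes of this paragraph that were tested there were positive, from 1.28 for Foxh1 to 7.28 for Fgd2. The intervals cover counting error only, and the lower bounds allow for it in the group without counts alone.

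Among the falls Lypd8 had 0 counts at E2.75 and 1287 at E2.5, at least 142-fold lower, although 930 of these came from E2.5 embryo 1. Glod5, Hopx and Eps8l2 were at least 28.3-fold, 18.3-fold and 14.1-fold lower. Efnb1, an ephrin ligand, had 1 count against 419, a ratio of 138 with a counting interval from 24.7 to 5480, and Egln3, the oxygen-sensing prolyl hydroxylase, 3 against 645 (71.0, from 24.2 to 345). Rpph1, the RNA component of RNase P, was at 1.52, 7.34 and 4.10 CPM at E2.75 and from 87.9 to 371 CPM (median 197) at E2.5, with a log2 fold change of -5.46 ± 0.65 (edgeR adjusted p = 0.00569), the lowest adjusted p among the genes named here. Rpph1 is 319 bases long and has no poly(A) tail in its mature form. It was also at -3.61 in het and -4.23 in null embryos, and at -4.21 with the offset. Gm12248, Tpm3-rs7 and Akr1b8 had log2 fold changes of -5.08, -5.03 and -4.87, Tpm3-rs7 being a retrocopy of Tpm3 whose reads could be split with its parent, and Gm24289, a scaRNA of 135 bases, had 2 counts against 199. In het embryos Efnb1 and Akr1b8 had the opposite sign, with log2 fold changes of 1.72 and 0.11. The other genes of this paragraph that were tested there were negative.

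The other genotypes of the same matings give the same comparison in embryos that the WT fit did not use. In het embryos (5 at E2.75, 2 at E2.5), 18 of 14501 genes were called higher (0.124%) and 41 lower (0.283%), and in null embryos (3 and 4) 50 of 12008 higher (0.416%) and 85 lower (0.708%). Of the WT rises tested in het embryos 358 of 393 (91.1%) had a positive log2 fold change there, with a median of 0.86, and of the falls 463 of 491 (94.3%) had a negative one, with a median of -0.69, where 51.7% of all genes were positive. In null embryos the shares were 311 of 360 (86.4%) and 434 of 489 (88.8%). Het embryos showed the GC trend of the WT embryos, and with the offset applied to them the shares were 307 of 393 (78.1%) and 426 of 491 (86.8%). Null embryos also showed it, with bin medians from -0.35 to 0.43 by GC and from -0.26 to 0.13 by length. The offset was not applied to null embryos. As in WT embryos, stage cannot be told apart from litter or collection date in either genotype.

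**Figure D5:**
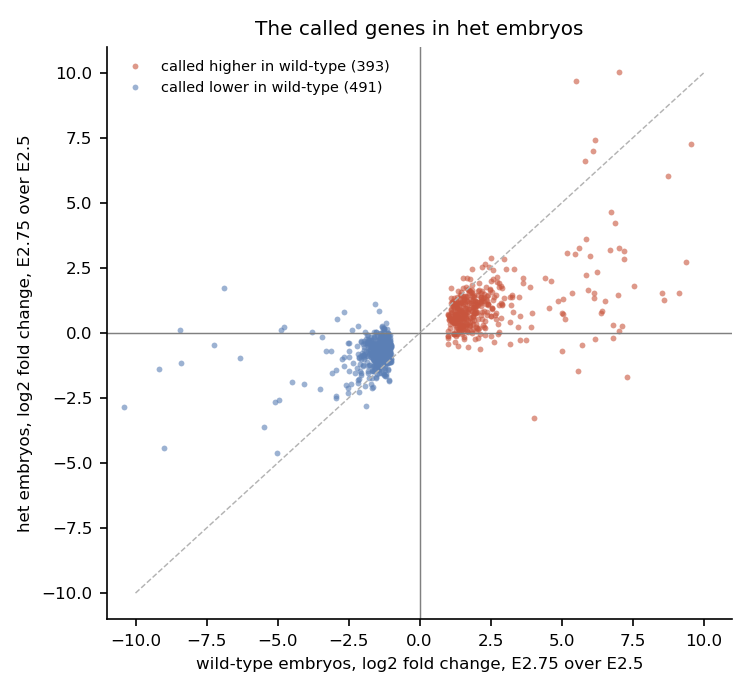
Log2 fold change of E2.75 over E2.5 in het embryos (vertical) against WT embryos (horizontal) for the 393 rises and 491 falls of WT embryos that were tested in both, with the dashed line marking equal values. No embryo enters both axes, and 358 of the 393 rises and 463 of the 491 falls lie on the side of the WT sign.

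Tested directly, the stage difference was called different between WT and het embryos for 0 of 16994 genes in edgeR's quasi-likelihood test of the interaction, with 1090 at an unadjusted p under 0.05 and a lowest adjusted p of 0.478. DESeq2 called 101. Between WT and null embryos 0 of 15582 were called, with 1365 at an unadjusted p under 0.05. With 2 het embryos at E2.5 these tests do not show that the genotypes changed alike.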

How the data were processed

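RNA from single embryos was sequenced after template-switching reverse transcription and amplification of full-length cDNA. According to the submitters' processing notes, the authors used cutadapt 3.4, STAR 2.7.8a and HTSeq 0.11.4, and the deposited files hold their raw read counts per gene (55487 genes, 92 ERCC rows and 5 summary rows), counted without strand. ERCC and summary rows were left out of library sizes and tests. From the counts, genes passing filterByExpr were tested with edgeR 4.0.16 (R 4.3.3, TMM, quasi-likelihood test, Benjamini-Hochberg adjustment) on the 9 WT embryos with stage as the only term. Calls used the study's thresholds, an adjusted p below 0.1 with more than 1 on the log2 scale. Fold changes are E2.75 over E2.5. The edgeR stage fit was tested on simulated counts. Single values were compared with exact permutation tests computed with NumPy 2.4.6, and counting intervals were computed with SciPy 1.17.1.

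Alternatives were DESeq2 1.42.0, its size factors, ERCC scaling, no filter, all 23 embryos in 1 fit, a replicate block and leaving out each embryo. An offset fitted by loess to length and GC was added after seeing the data. The embryos, gene lists and tests were chosen with earlier results of these data known. Named genes are, in each direction, the 12 largest called changes without overlap and with a mean of at least 1 CPM at a stage, the called members and the 3 lowest p-values of each list, and a set of lineage genes. Other genes with values, among them p53 targets of E2.5 embryo 1, were picked after their values were seen. Lengths, GC and coordinates are from GENCODE vM21 on GRCm38, matched for 55141 genes. Chromatin peak files were not used. The values of some list members are not reported here. Depth per embryo is given with the results, and intervals cover counting error only.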

Additional observations from a re-analysis of the deposited data

Results flagged for a closer look

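Among the 6 E2.5 embryos, the gap between the most extreme embryo and its nearest neighbour, as a share of the group's range in log2 CPM, exceeded Dixon's critical value of 0.625 for 10 of 173 genes examined, where chance gives about 1 in 20. It was 0.866 for Ccng1, through E2.5 embryo 1. It was 0.802 for Pfkm, 0.7 for Nanog, 0.698 for Atp6v0d1 and 0.650 for Npm1. It was 1.0 for Nadsyn1, Pomt1, Nlgn1, Lpin3 and Usp44, each of which had counts in 1 E2.5 embryo alone.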

How the results depend on the processing

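The 402 rises and 495 falls became 890 and 986 with DESeq2, 1861 and 38 with ERCC scaling and 138 and 226 with the length and GC offset. All 23 embryos in 1 fit gave 698 rises. Leaving out each embryo gave 42 to 519 rises and 54 to 568 falls, and 9 to 218 and 16 to 260 with the offset. The deviations of same-numbered embryos had correlations of -0.020, -0.093 and -0.042, within the range of other pairs (-0.098 to 0.116). Whether same-numbered embryos shared a litter or a batch was not tested. A replicate block gave 167 rises and 165 falls. DESeq2 called 101 genes for the WT and het difference, and the offset left 20 of the 59 genes called in het embryos. The causes were not tested.

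Of 167 genes followed, 99 were called, of which 97 stayed called with DESeq2, 52 with the offset and 30, 28 and 17 without E2.75 embryo 1, 2 or 3. Log2 fold changes turned sign under ERCC scaling for Ccnb2 (0.06), Gmnn (0.00), Npm1 (0.01), Mark3 (0.24), Cfl1 (0.23), Ocln (0.41), Pou5f1 (0.58), Hspa8 (0.08), Xist (0.79) and Cdkn1a (0.98), with the offset for Cdh1 (-0.07), Tead4 (-0.65), Cdx2 (-0.22) and Smarca4 (-0.08), and with the replicate block for Cdx2 (-0.08), Pou5f1 (0.73), Nanog (-0.03), Dis3 (-0.41) and Xist (8.31). Leaving out 1 embryo gave -0.83 to 0.25 for Xist, -0.91 to 0.60 for Nanog, -1.20 to 3.87 for Zfp352, -0.11 to 0.44 for Yap1, -0.10 to 1.67 for Fgf4, -0.29 to 0.90 for Cdx2, -0.12 to 0.76 for Gata3, -0.33 to 1.48 for Ccng1 and -0.45 to 0.29 for Cdkn1a. With no minimum fold 424 genes rose and 609 fell. The size of difference that 3 embryos at E2.75 could miss was not tested.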
